A study of Mus musculus with 24 samples.

Results

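The genes described are 5 ligands of the bone morphogenetic protein (BMP) family (Bmp2, Bmp4, Bmp5, Bmp6 and Bmp7), 2 inhibitors of the pathway (Nog and Smad6) and 3 of its target genes (Id1, Id2 and Id3). They were taken by name from a table of read counts, and all 10 were found among its 51697 named genes. The table holds 24 RNA-seq libraries from F123 mouse embryonic stem (ES) cells in which CTCF carries an auxin-inducible degron (CTCF-AID), a tag through which auxin leads to destruction of the protein. Every group shares the tag, including those without auxin, and no untagged line was analysed here. CTCF binds DNA and anchors the ends of chromatin loops. ES cells grown with LIF and serum replacement were harvested after 0, 24, 48 or 96 h of auxin. Other cells were taken through neural progenitor differentiation and harvested on day 2, 4 or 6, without auxin (control) or with it. The 2 washout groups were freed of auxin on day 4 or day 6 and kept for 2 more days before harvest. Auxin was renewed with the medium every 24 h. Each of the 12 groups has 2 libraries. Nothing in the labels says that the replicates came from separate cultures, so p-values measure the spread between these libraries, which may be technical.

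BMPs are secreted ligands that bind paired serine/threonine kinase receptors, which phosphorylate Smad1, Smad5 and Smad9. These join Smad4, enter the nucleus and switch on targets, among which the Id genes are the best known. Id proteins lack a DNA-binding domain and hold back basic helix-loop-helix factors, including proneural ones. Noggin, encoded by Nog, traps ligands outside the cell, and Smad6 blocks signalling inside it, being itself a target. In mouse ES cell culture BMP signalling acting through Id genes works with LIF to hold back neural differentiation, and in the neural tube BMPs from the roof plate pattern the dorsal side.

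Promoter sequence from RefSeq (build GRCm38.p6) was matched for 6 of the 10 genes, Bmp4, Bmp5, Bmp6, Id2, Id3 and Smad6. The 250 bases before each RefSeq start were searched on both strands for GGCGCC and GTCTG, short elements that Smad proteins are known to bind, and for the core of the CTCF consensus. The sequences below are the parts of the Bmp5 and Id2 windows that lie outside annotated exons, shown because Bmp5 had the largest response to auxin and Id2 is an Id gene that was lower with auxin on both day 4 and day 6. Capitals mark a match. Bmp5 lies on the plus strand (chr9:75775115-75775363) and Id2 on the minus strand (chr12:25096254-25096342), both read 5' to 3'.
Bmp5 upstream: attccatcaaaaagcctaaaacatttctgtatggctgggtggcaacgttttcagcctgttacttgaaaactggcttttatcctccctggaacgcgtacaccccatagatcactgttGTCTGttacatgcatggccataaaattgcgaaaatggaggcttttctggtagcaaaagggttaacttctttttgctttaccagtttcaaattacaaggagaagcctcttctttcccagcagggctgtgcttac
Id2 upstream: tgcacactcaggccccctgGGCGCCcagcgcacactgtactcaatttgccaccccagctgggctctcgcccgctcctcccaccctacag
The Bmp5 window held 1 GTCTG and the Id2 window 1 GGCGCC, while the Bmp4 and Smad6 windows held neither element. GENCODE places some starts further upstream than RefSeq does, so all 250 bases of the Bmp6 and Id3 windows and 161 of those of Id2 lie within annotated exons. GTCTG matched 2 times in the Id3 window and 1 time in the Bmp6 window, in exon sequence in both. GTCTG was present in 42.2% of 32851 windows of the same length and GGCGCC in 9.59%. The CTCF core was found in none of the 6 windows and in 7.17% of all windows. A match is a description of the letters and no evidence of a bound site.

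Library totals ran from 24696374 to 29909368 counts in the first ES replicates, from 51686150 to 61681404 in the second, and from 51053184 to 72048935 in the differentiation series. Levels are CPM (each count divided by its library's total and set to a common total) after scaling for library composition, first replicate then second. Within ES groups the replicates' log2 ratios had an SD of 0.54 to 0.65 across genes. Within differentiation groups that SD was 0.17 to 0.19, except 0.30 for day 2 with auxin. Ctcf mRNA ran from 172 to 287 CPM over the 24 libraries and was present in all of them. The degron acts on protein, so this level does not check the depletion. Changes are log2 fold changes with standard errors and Benjamini-Hochberg adjusted p-values over all genes tested, from edgeR's quasi-likelihood test, with 0.05 on the adjusted p as the threshold for a changed gene. The ES and the differentiation libraries were fitted separately, except that comparisons across both used 1 fit of all 24 libraries.

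Marker genes of several cell types rose during differentiation, not only neural ones. From day 2 to day 4 of control differentiation all 8 neural progenitor markers rose, to a summed 227 to 239 CPM. All 10 endoderm markers (2759 to 2969 CPM) and all 8 mesenchyme markers (377 to 385 CPM) rose as well. By day 6 the 8 neuron markers summed to 262 to 276 CPM in controls. Bulk RNA cannot tell fewer cells of a type from less RNA per cell.

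**Figure D1:**
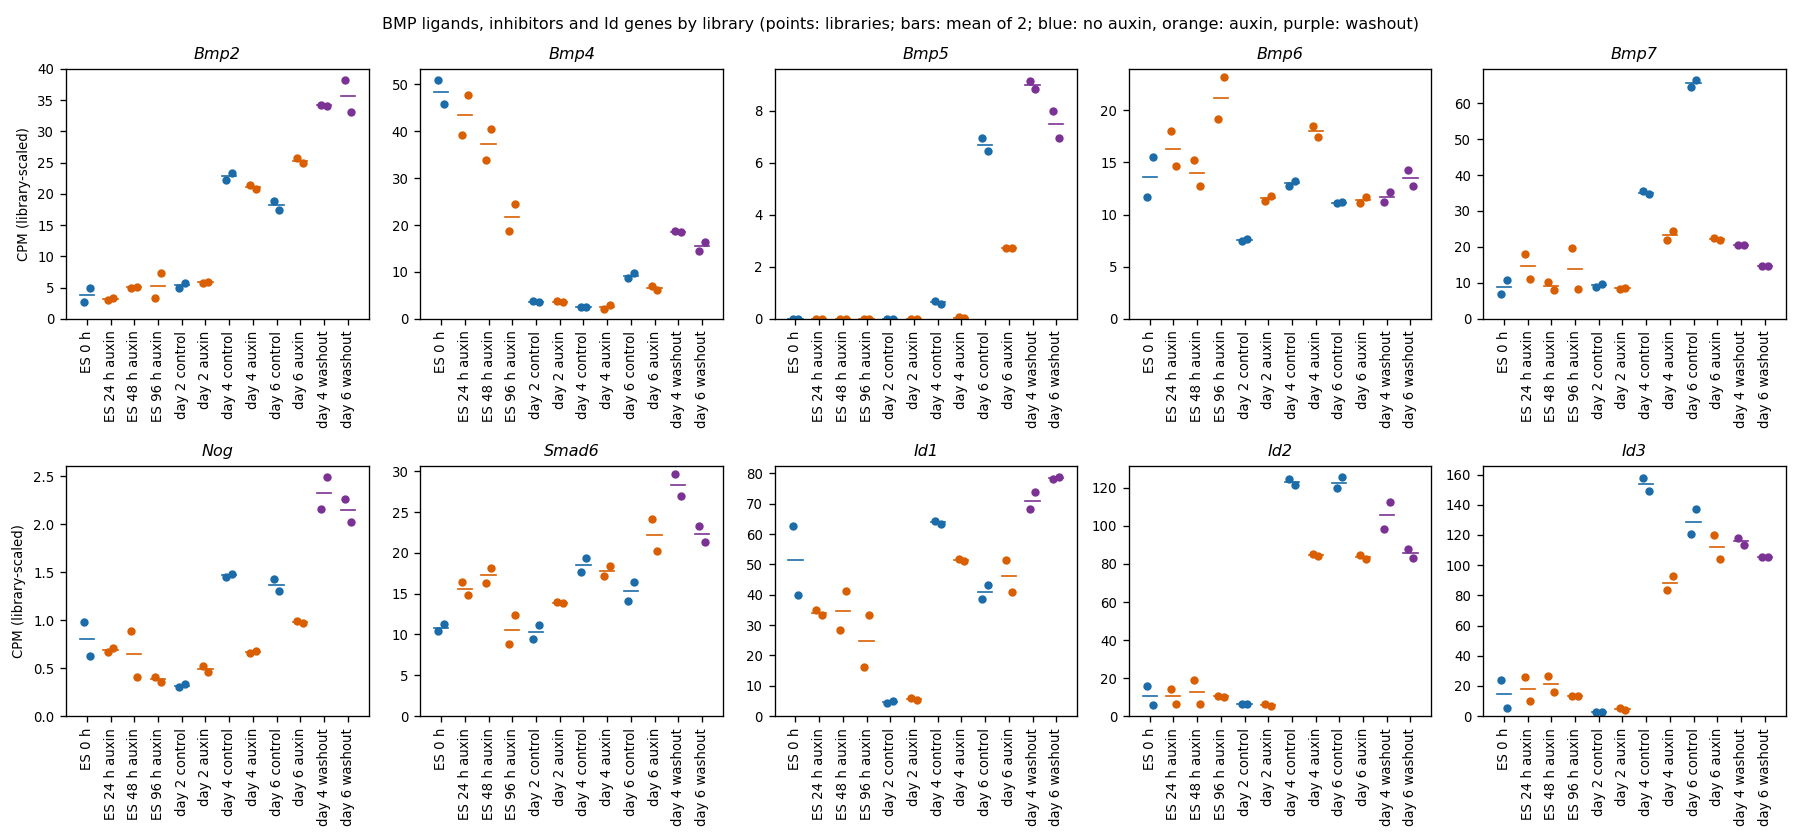
CPM of each gene (vertical axes, linear, from 0) in the 12 groups (horizontal axes), with 1 point per library and a bar at the mean of 2. Bmp4 is highest in ES cells, Bmp5 is at 0 counts there, Id2 and Id3 are highest in day 4 and day 6 controls, and Bmp7 reaches 64.5 and 66.5 CPM in day 6 controls alone.

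Control differentiation set the baseline of the ligands. In ES cells without auxin Bmp4, a ligand of the early embryo's epiblast and extraembryonic tissue, was the main BMP transcript of the 5. Per kilobase of exon it stood at 22.6 and 20.4 CPM, against 2.99 and 3.97 for Bmp6, 1.74 and 2.68 for Bmp7 and 0.755 and 1.38 for Bmp2. Bmp5 had 0 counts in all 8 ES libraries and in both day 2 controls. On day 6 the order per kilobase was different. Bmp7, a ligand of kidney, eye and nervous system development, led with 16.1 and 16.6 CPM, followed by Bmp2 with 5.33 and 4.92, Bmp4 with 3.88 and 4.32, Bmp6 with 2.84 and 2.88 and Bmp5 with 1.72 and 1.61.

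Between ES cells and day 2, in 1 fit of all 24 libraries, 5 of the 9 genes tested fell and none rose. That fit takes a smaller spread for ES cells than the ES libraries alone show. Of all 23831 genes tested 18.2% changed, 10.3% higher and 7.91% lower. Bmp4 went from 50.9 and 45.9 CPM to 3.78 and 3.59, a log2 change of -3.71 ± 0.20 (adjusted p = 7.6e-10). Id1 went from 62.6 and 40.1 CPM to 4.46 and 4.85 (-3.46 ± 0.29, adjusted p = 1.7e-07). For both genes the groups stood far apart. Id3 started from 23.7 and 5.30 CPM in the 2 ES libraries, which differ widely, and reached 2.52 and 2.46 (-2.52 ± 0.49, adjusted p = 0.0016). Nog (-1.30 ± 0.35, adjusted p = 0.016) and Bmp6 (-0.85 ± 0.18, adjusted p = 0.0027) also fell. The Id3 call was lost without the first ES library (adjusted p = 0.065), and the Nog call without that library (0.13) or either day 2 control (0.11 and 0.092). Without the second ES library Bmp2 (1.02, adjusted p = 0.031) and Id2 (-1.29, adjusted p = 0.028) passed as well. With only the 4 libraries compared in the fit, Bmp6, Id3 and Nog did not pass (adjusted p = 0.14, 0.16 and 0.19). Over all genes 238 were called there, against 4328 in the fit of 24.

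From day 2 to day 4 in controls 9 of 10 genes rose and 1 fell, in a comparison that called 52.1% of 22587 genes (27.2% higher, 24.8% lower). The Id genes moved most among those with counts on both days. Id3 climbed from 2.52 and 2.46 CPM to 157.9 and 149.3, a 62.4-fold difference (5.96 ± 0.12, adjusted p = 2.6e-15). Id2 went from 6.22 and 6.43 to 124.6 and 121.4 CPM, 19.7-fold higher, and Id1 from 4.46 and 4.85 to 64.4 and 63.3 CPM, 13.8-fold higher. No library of 1 day came near those of the other. Among the ligands Bmp2 rose 4.28-fold, to 22.3 and 23.4 CPM, Bmp7 3.80-fold and Bmp6 1.74-fold. Bmp5 went from 0 counts to 42 and 38, at least 26.6-fold higher against a floor of 3 counts over the group. Nog rose 4.64-fold, to 1.46 and 1.49 CPM, and Smad6 1.82-fold. Bmp4 alone fell, by 0.51 ± 0.14 on the log2 scale, to 2.56 and 2.54 CPM (adjusted p = 0.0051).

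Between day 4 and day 6 of the control series 3 genes rose, 2 fell and 5 did not pass, with 26.7% of all genes called (13.6% higher, 13.1% lower). The 3 that rose were ligands. Bmp5 reached 6.94 and 6.47 CPM (3.40 ± 0.18), Bmp4 8.73 and 9.71 CPM (1.86 ± 0.13) and Bmp7 64.5 and 66.5 CPM (0.91 ± 0.07). Id1 fell to 38.7 and 43.1 CPM (-0.63 ± 0.09, adjusted p = 7.1e-05), whereas Id2 held 120.1 and 125.5 CPM (0.01 ± 0.08, adjusted p = 0.96). Bmp2 fell by 0.32 on the log2 scale (adjusted p = 0.010), a call lost without the second library of either day (0.095 and 0.12). Id3 measured 120.6 and 136.9 CPM on day 6 (-0.24 ± 0.09, adjusted p = 0.060). Bmp6 (-0.21 ± 0.08, adjusted p = 0.079), Smad6 (-0.27 ± 0.11, adjusted p = 0.082) and Nog (-0.10 ± 0.18, adjusted p = 0.76) did not pass either.

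In ES cells none of the 9 genes tested changed at 24, 48 or 96 h of auxin, and neither did any of 20361 genes (0% called). At an unadjusted p below 0.05 stood 548, 1039 and 1767 genes, and DESeq2 called 76, 154 and 365. In data simulated with independent libraries, the ES fit found 32% of planted 4-fold changes at 96 h and 0% of 2-fold ones. That fit therefore had little power for 2-fold effects. The simulation left out any pairing of replicates. For the differentiation fit it found 58.2% of 2-fold and 85.7% of 4-fold changes on day 4. It was not run for the fit of all 24 libraries. The clearest course was that of Bmp4. It measured 50.9 and 45.9 CPM at 0 h, 39.2 and 47.7 at 24 h, 33.8 and 40.6 at 48 h, and 18.7 and 24.6 at 96 h. Both 96 h libraries lay below the other 6. The 96 h difference was -1.17 ± 0.26, with an adjusted p of 0.29. Replicate numbers pair the ES libraries, though 0 h with 96 h the least (correlation of replicate differences 0.18). With the replicate block the adjusted p for Bmp4 was 0.024 (-1.19), where 3.05% of genes were called. DESeq2 gave 0.010 and 1 fit of all 24 libraries 0.00063. The fit of 24 had a common dispersion, a measure of the spread between libraries, of 0.0439 against 0.134 in the ES fit. It thus takes a smaller spread than the ES libraries show, and it called 1955 genes at 96 h.

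Id1 in the same libraries measured 62.6 and 40.1 CPM at 0 h, 34.9 and 33.3 at 24 h, 28.3 and 41.2 at 48 h, and 16.2 and 33.3 at 96 h. Its difference at 96 h was -1.07 ± 0.39 (adjusted p = 0.46, and 0.13 with the replicate block). Id2 and Id3 differed between replicates more than between times. Id3 ran from 5.30 to 26.3 CPM over the first 3 times and stood at 13.6 in both 96 h libraries. Nog, at 13 to 42 counts per library, was lower at 96 h than at 0 h in both libraries (-1.07 ± 0.63, adjusted p = 0.71). Smad6 measured 10.4 and 11.2 CPM at 0 h, 16.4 and 14.8 at 24 h, 16.3 and 18.1 at 48 h and 8.82 and 12.4 at 96 h, and passed at no time in the ES fit.

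The other ligands in ES cells differed less between times. Bmp6 measured 11.6 and 15.5 CPM at 0 h, 15.2 and 12.7 at 48 h, and 19.2 and 23.2 at 96 h (0.63 ± 0.30, adjusted p = 0.62). Both of its 96 h libraries lay above the other 6. Bmp7 measured 6.98 and 10.8 CPM at 0 h, and its replicates parted at 96 h, at 19.6 and 8.23 (0.65 ± 0.48, adjusted p = 0.79, and -0.14 without the first 96 h library). Bmp2 stayed between 2.68 and 7.37 CPM in all 8 libraries (0.47 ± 0.48 at 96 h, adjusted p = 0.87, and -0.19 without the second 96 h library). In 1 fit of all 24 libraries Bmp6 (adjusted p = 0.029) and Id1 (0.018) passed at 96 h together with Bmp4, and Smad6 passed at 48 h (0.047). That fit takes a smaller spread for ES cells than the ES fit does.

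**Figure D2:**
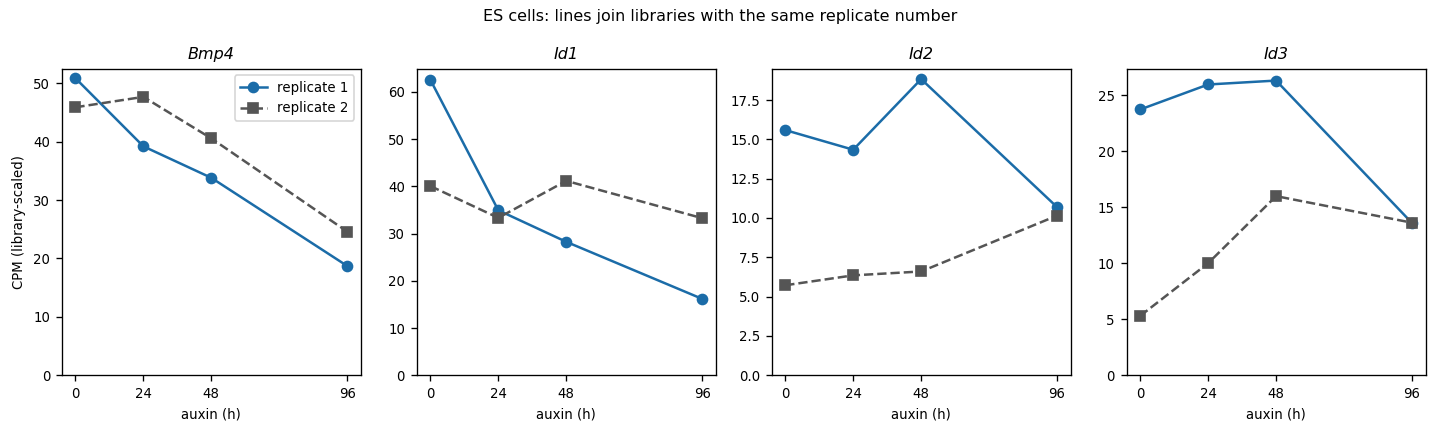
CPM (vertical axes, from 0) of Bmp4, Id1, Id2 and Id3 in ES cells against hours of auxin (horizontal axes), with lines joining libraries of the same replicate number. Both Bmp4 lines end at their lowest point, 18.7 and 24.6 CPM, while the Id2 and Id3 lines of the 2 replicates lie apart at 0 h.

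With auxin during differentiation the calls changed from day to day. On day 2, 3 of the 9 genes tested rose, none fell, and 18.3% of all genes were called (9.84% higher, 8.43% lower). The replicates' SD was 0.30 in day 2 auxin and 0.17 to 0.19 in the other differentiation groups. The fit shares 1 estimate of the spread over these groups, smaller than day 2 auxin shows. The BMP target Id3 was 2.01-fold higher, at 5.59 and 4.36 CPM against 2.52 and 2.46 (1.00 ± 0.14, adjusted p = 6.5e-05). Bmp6, a ligand best known for iron control in the liver, went from 7.48 and 7.65 CPM to 11.3 and 11.8 (0.62 ± 0.09, adjusted p = 9.1e-05). Smad6 went from 9.46 and 11.2 CPM to 13.9 and 13.8 (0.44 ± 0.11, adjusted p = 0.012), a call lost without the first control library (0.18). In these 3 genes both auxin libraries lay above both controls, as they also did in Bmp2, Id1 and Nog, which did not pass. Id2 (-0.15 ± 0.10, adjusted p = 0.35) passed without the first auxin library (adjusted p = 0.040). Bmp5 had 1 count in 1 auxin library and was not tested.

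On day 4 with auxin 6 genes fell, 1 rose and 3 did not pass, where 11.8% of all genes fell and 11.8% rose. All 3 Id genes were among those lower. Id3 measured 83.7 and 92.6 CPM against 157.9 and 149.3 in controls (-0.81 ± 0.09, adjusted p = 5.8e-06). Id2 measured 85.0 and 84.2 CPM against 124.6 and 121.4 (-0.55 ± 0.08, adjusted p = 4.9e-05). For Id1 the values were 51.6 and 51.2 against 64.4 and 63.3 CPM (-0.32 ± 0.09, adjusted p = 0.017), and leaving out any 1 of the 4 libraries raised its adjusted p to between 0.073 and 0.10. Auxin and control libraries did not overlap for any of the 3, nor for Bmp2, which did not pass (adjusted p = 0.34).

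Among the ligands on day 4, Bmp5 had the fewest counts with auxin. It had 4 and 2 counts (0.0734 and 0.0304 CPM) where controls had 42 and 38 (0.702 and 0.576 CPM), a change of -3.63 ± 0.39 (adjusted p = 4.2e-06). Bmp7 measured 22.0 and 24.5 CPM against 35.5 and 34.6 (-0.60 ± 0.07, adjusted p = 1.2e-05). Bmp6 moved the other way, to 18.5 and 17.5 CPM from 12.7 and 13.2 (0.46 ± 0.08, adjusted p = 0.00058). Bmp2 (-0.12 ± 0.08) and Bmp4 (0.01 ± 0.14) did not pass. The ligand trap Nog was 2.19-fold lower, at 36 and 45 counts against 87 and 98 (-1.13 ± 0.20, adjusted p = 0.00049). Smad6 did not pass (-0.07 ± 0.11, adjusted p = 0.72).

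On day 6 with auxin 4 genes fell, 2 rose and 4 did not pass, where 15.2% of all genes fell and 14% rose. Bmp7 showed the widest gap, with 22.6 and 22.0 CPM against 64.5 and 66.5 in controls, 2.96-fold lower (-1.57 ± 0.07, adjusted p = 1.9e-10). With auxin its level was close on day 4 and day 6, and the 4 libraries of those groups spanned 22.0 to 24.5 CPM. Bmp5 measured 2.71 and 2.72 CPM against 6.94 and 6.47 (-1.31 ± 0.15, adjusted p = 4.7e-06). Id2 measured 84.9 and 82.4 CPM against 120.1 and 125.5 (-0.57 ± 0.08, adjusted p = 2.4e-05). Bmp4 was lower at 7.02 and 6.25 CPM against 8.73 and 9.71 (-0.49 ± 0.12, adjusted p = 0.0049). That call was lost without the second control (0.066) or second auxin library (0.073).

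The 2 genes that rose on day 6 were Bmp2, at 25.7 and 24.9 CPM against 18.9 and 17.5 (0.46 ± 0.08, adjusted p = 0.00043), and Smad6, at 24.1 and 20.3 against 14.2 and 16.4 CPM (0.53 ± 0.11, adjusted p = 0.0013). Id3 (-0.21 ± 0.09, adjusted p = 0.10), Nog (-0.49 ± 0.19, adjusted p = 0.070) and Bmp6 (0.02 ± 0.09, adjusted p = 0.88) did not pass. Id1 measured 51.6 and 40.9 CPM against 38.7 and 43.1 (0.17 ± 0.09, adjusted p = 0.20), and passed without the second auxin library (0.33, adjusted p = 0.020). In 1 fit of all 24 libraries, where the wide ES spread enters, the common dispersion was 0.0439 against 0.0051 in the differentiation libraries alone. There none of the genes passed on day 2, Bmp5 passed on day 4 (adjusted p = 0.0004), and Bmp5 (0.015) and Bmp7 (0.0024) passed on day 6.

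**Figure D3:**
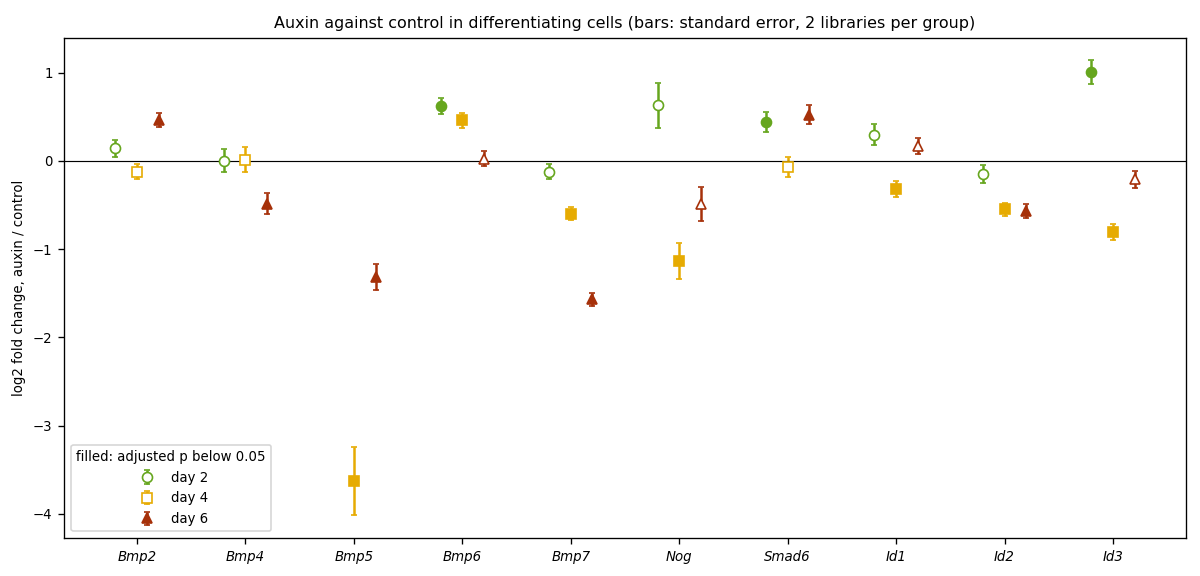
Log2 fold change of auxin over control (vertical axis) for each gene (horizontal axis) on day 2, 4 and 6, with bars for the standard error (2 libraries per group) and filled symbols for an adjusted p below 0.05. Bmp5 on day 4 lies lowest at -3.63, Bmp7 goes from -0.12 on day 2 to -1.57 on day 6, and Id3 from 1.00 to -0.81 and -0.21.

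Tests of the difference between days followed. From day 2 to day 4 the auxin effect turned lower for 4 of 9 genes, with 9.9% of all genes called (4.56% higher, 5.34% lower). The shift was -1.81 ± 0.16 for Id3 (adjusted p = 3.1e-06) and -1.76 ± 0.33 for Nog (adjusted p = 0.0023). Both went from a value above 0 to one below, but the day 2 value of Nog (0.63 ± 0.26) did not pass (adjusted p = 0.13). Id1 shifted by -0.62 and Bmp7 by -0.48. Between day 4 and day 6 the effect moved for 7 of 10 genes, up for 5 and down for 2, with 4.24% of all genes called (2.05% higher, 2.19% lower). It became less negative for Bmp5 (2.31 ± 0.45, adjusted p = 0.0077) and Id3 (0.60 ± 0.13, adjusted p = 0.013) and more negative for Bmp7 (-0.97 ± 0.10, adjusted p = 3.3e-05). Id2 had nearly the same change on both days, and the difference was -0.02 ± 0.11 (adjusted p = 0.97). These comparisons share control and auxin libraries. In the fit of 24 libraries no gene of the 10 passed either test. Against the 96 h effect in ES cells, also in the fit of 24 libraries, the day 4 effect differed for 1 of 9 genes tested, Bmp4. For Bmp4 it was higher by 1.17 ± 0.26 (adjusted p = 0.032), with 1.23% of all genes called (0.462% higher, 0.772% lower). That call was lost with only the groups compared in the fit (adjusted p = 0.46).

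Marker lists moved with these changes. On day 4 with auxin 7 of 8 neural progenitor markers fell, with a median log2 change of -2.96 over the list, and on day 6 again 7 of 8, with a median of -3.06. Their summed level went from 227 to 239 CPM to 127 to 134 on day 4. On day 6 it went from 227 to 230 CPM to 150 to 158. Much of the day 4 auxin sum is Nes, an intermediate filament gene. Nes rose on day 4, from a mean of 59.0 to 73.0 CPM, while Sox1, a transcription factor of neural progenitors, fell from 25.8 to 4.50 CPM. All 8 neuron markers fell on day 6, to 24.7 to 24.8 CPM against 262 to 276. Pluripotency markers summed to 819 to 839 CPM with auxin on day 6 against 452 to 470 (7 of 8 higher, 1 lower), and endoderm markers to 2692 to 2893 against 1981 to 2231 (5 of 10 higher, 1 lower). Mesenchyme markers summed to 706 to 707 against 785 to 810 CPM, with 6 of 8 lower and 1 higher, and epidermal and trophoblast markers to 309 to 310 against 365 to 382 CPM, with 3 of 8 lower and 1 higher. Roof plate and dorsal neural markers went both ways. On day 4 with auxin 2 of 10 rose and 5 fell, and on day 6 4 rose and 3 fell, although their sums overlapped on day 6 (18.8 to 19.7 against 17.9 to 19.3 CPM). On day 6 the mean level of Gdf7, a roof plate ligand, went from 0.117 to 0.880 CPM and that of Atoh1, a factor of dorsal interneurons, from 0.0900 to 0.569, whereas Olig3, another dorsal factor, went from 0.758 to 0.0751 CPM. Of these 10 markers 3 (Gdf7, Msx1 and Msx2) are also on the BMP pathway lists. The part of these markers in the changes of the BMP genes was not tested.

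After washout Bmp2, Bmp4, Bmp5, Id1 and Nog were higher than in day 6 auxin cells in both washout groups. Bmp7 and Id3 were higher in neither group. In the washout libraries 59.61% to 60.48% of low counts (1 to 20) were even, against 65.89% or more in all others. Whether that difference bears on the washout comparisons was not tested. Cells washed out on day 4 and harvested 2 days later match day 6 in time. Against day 6 auxin cells 7 of 10 genes were higher and none lower, with 17.3% of all genes higher. Bmp5 measured 9.16 and 8.84 CPM against 2.71 and 2.72 (1.75 ± 0.15, adjusted p = 3e-07). Bmp4 measured 18.7 and 18.4 against 7.02 and 6.25 CPM (1.50 ± 0.12, adjusted p = 7.9e-08), and Nog 2.16 and 2.50 against 0.991 and 0.973 CPM (1.26 ± 0.19, adjusted p = 7.3e-05). Each of these groups was clear of the other. Id1 (0.64 ± 0.09), Bmp2 (0.45 ± 0.08), Smad6 (0.37 ± 0.11) and Id2 (0.36 ± 0.08) were higher too. The Smad6 call was lost without the second auxin library (adjusted p = 0.19) or the first washout library (0.12). Id3 measured 118.2 and 113.2 CPM, both between the levels of the 2 auxin libraries (0.06 ± 0.09, adjusted p = 0.63). Bmp6 measured 11.2 and 12.2 CPM against 11.2 and 11.7, also with overlap (0.05 ± 0.09, adjusted p = 0.67).

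Bmp7 measured 20.5 and 20.6 CPM after washout on day 4, against 22.6 and 22.0 in day 6 auxin cells (-0.10 ± 0.07, adjusted p = 0.34) and 64.5 and 66.5 in day 6 controls (-1.66 ± 0.07, adjusted p = 1.5e-10). It was thus 3.17-fold below the control of the same day. Against day 6 controls 6 genes were higher and 2 lower, with 33.9% of all genes called (16.8% higher, 17.1% lower). Bmp4 was 2.02-fold higher, Bmp2 1.89-fold (34.2 and 34.1 against 18.9 and 17.5 CPM), Smad6 1.86-fold (29.6 and 27.0 against 14.2 and 16.4 CPM), Id1 1.75-fold (68.1 and 73.8 against 38.7 and 43.1 CPM) and Nog 1.72-fold. These 5 genes therefore stood above the control level, not at it. Bmp5 (0.43 ± 0.14, adjusted p = 0.022) and Id2 (-0.21 ± 0.08, adjusted p = 0.045) passed by a small margin. Bmp5 lost its call without any 1 of the 4 libraries (adjusted p = 0.067 to 0.14). Id2 lost it without either control (0.083 and 0.23) or the first washout library (0.35), and with RLE scaling (0.057). Id3 (-0.15 ± 0.09, adjusted p = 0.25) and Bmp6 (0.08 ± 0.09, adjusted p = 0.54) did not pass against day 6 controls.

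Washout on day 6 was followed by harvest 2 days later, a time for which no control was analysed, so time and washout cannot be told apart. Against day 6 auxin cells 6 genes were higher and 1 lower, with 40.3% of all genes called (20.4% higher, 19.9% lower). Bmp5 (8.01 and 6.97 CPM), Bmp4 (14.6 and 16.4), Nog (2.27 and 2.03), Id1 (78.0 and 78.7) and Bmp2 (38.2 and 33.1) were higher, by 1.48, 1.24, 1.14, 0.78 and 0.51 on the log2 scale. Bmp6 was higher by 0.25 (adjusted p = 0.025), a call lost without either auxin library (0.14 and 0.065) or the first washout library (0.19). Bmp7 was lower again, at 14.7 CPM in both libraries (-0.59 ± 0.08, adjusted p = 1.2e-05). Id3 (105.2 and 105.1 CPM, -0.08 ± 0.09, adjusted p = 0.53), Id2 (88.1 and 83.0 CPM, 0.05 ± 0.08, adjusted p = 0.65) and Smad6 (23.3 and 21.3 CPM, 0.02 ± 0.11, adjusted p = 0.88) overlapped with the auxin libraries. In the fit of 24 libraries Bmp4, Bmp5 and Nog passed against day 6 auxin for both washout groups. For day 4 washout against day 6 control Bmp2, Bmp4, Bmp7 and Smad6 passed there.

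Markers of other cell types moved with the washout too. Against day 6 auxin cells 7 of 8 mesenchyme markers rose and 1 fell in each washout group, and the list summed to 880 to 918 CPM after washout on day 4 and 1421 to 1468 after washout on day 6. Epidermal and trophoblast markers summed to 491 to 504 and 636 to 674 CPM, above both day 6 auxin and day 6 control cells, with 3 of 8 higher and 2 lower after washout on day 4 and 4 higher and 1 lower after washout on day 6. Neuron markers stood at 40.5 to 42.6 and 46.1 to 48.6 CPM, with 6 of 8 higher in each group. Of 8 neural progenitor markers 3 rose and 2 fell after washout on day 4 and 2 rose and 2 fell after washout on day 6. Roof plate and dorsal neural markers gave 1 of 10 higher and 2 lower, then none higher and 3 lower. Endoderm markers gave 2 of 10 higher and 2 lower, then 6 higher and 3 lower, and pluripotency markers 1 of 8 higher and 3 lower, then 1 higher and 6 lower. The part of these markers in the changes of the BMP genes was not tested.

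**Figure D4:**
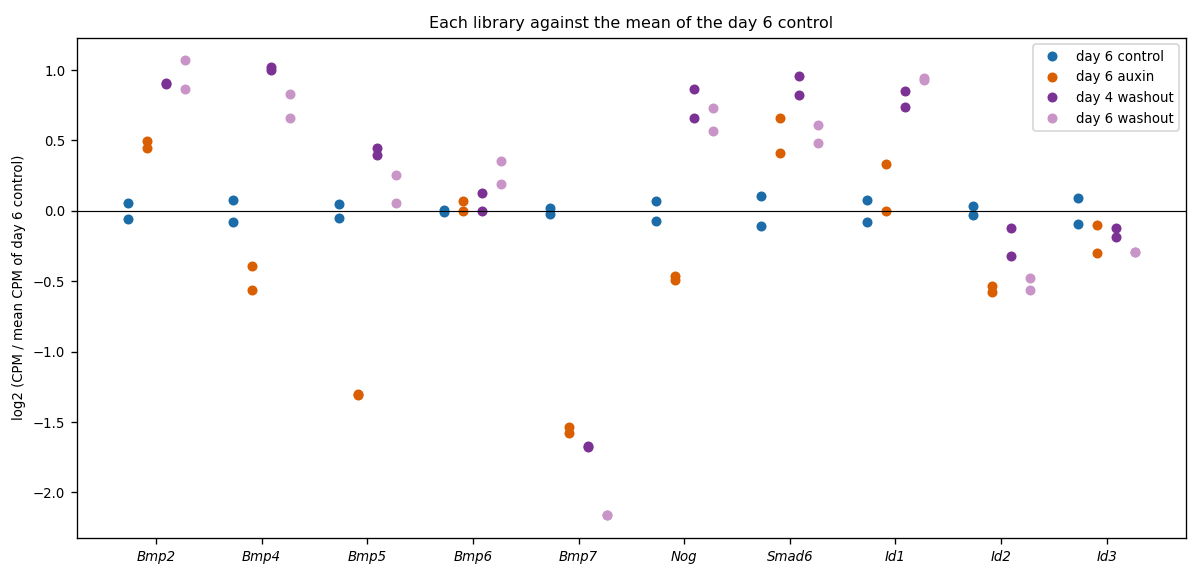
Log2 of each library's CPM over the mean CPM of day 6 controls (vertical axis) for each gene (horizontal axis) in 4 groups, 1 point per library. All 4 washout points lie above the controls for Bmp2, Bmp4, Nog, Smad6 and Id1, and for Bmp7 they lie with or below the auxin points.

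Of a list of 56 other genes of the BMP pathway, 55 were matched and 54 tested in the differentiation libraries. With auxin 15 rose and 6 fell on day 2 (38.9% called, against 18.3% of all genes). On day 4, 11 rose and 14 fell (46.3% against 23.5%), and on day 6, 17 rose and 16 fell (61.1% against 29.2%). Median log2 changes were 0.12, -0.09 and -0.04, against 0.02, 0.00 and 0.01 over all genes. By role, on day 6, 6 of 9 other ligands rose and 1 fell, and 1 of 10 receptors and co-receptors rose and 4 fell. Of 15 antagonists and other extracellular modulators 4 rose and 5 fell. Of 8 Smads and regulators 3 rose and none fell, and of 12 other targets 3 rose and 6 fell. Over all genes 14% rose and 15.2% fell on day 6.

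The receptor Bmpr1b, a type I receptor, fell from 8.13 and 9.54 CPM to 1.35 and 1.91 on day 6 (-2.45 ± 0.18, adjusted p = 2.1e-08) and by 1.62 on day 4. Bmper, a secreted modulator that binds BMPs, rose on all 3 days, on day 6 from 27.9 and 27.0 to 70.3 and 70.5 CPM (1.35 ± 0.07, adjusted p = 2.9e-10). The targets did not go one way. Tbx3, a T-box factor, rose to 241.4 and 236.0 CPM from 110.0 and 109.8 on day 6, and the homeobox gene Dlx3 to 6.49 and 6.16 from 0.977 and 0.878. Zfp423, a zinc-finger partner of Smads, fell on every day, on day 6 to 22.7 and 22.5 from 54.7 and 58.2 CPM. Hey1, a helix-loop-helix factor shared with Notch signalling, fell by 1.82 on day 6 and Gata3 by 0.80 on day 4. On day 2 Fstl1 rose by 0.47, and Tll1 and Twsg1 fell by 1.02 and 0.33. Among the genes named here, in the fit of 24 libraries Bmper passed on days 4 and 6, Bmpr1b on days 4 and 6, Gata3 on day 4, and Tbx3 and Hey1 on day 6. In ES cells none of 49 tested genes of the list passed at 96 h.

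**Figure D5:**
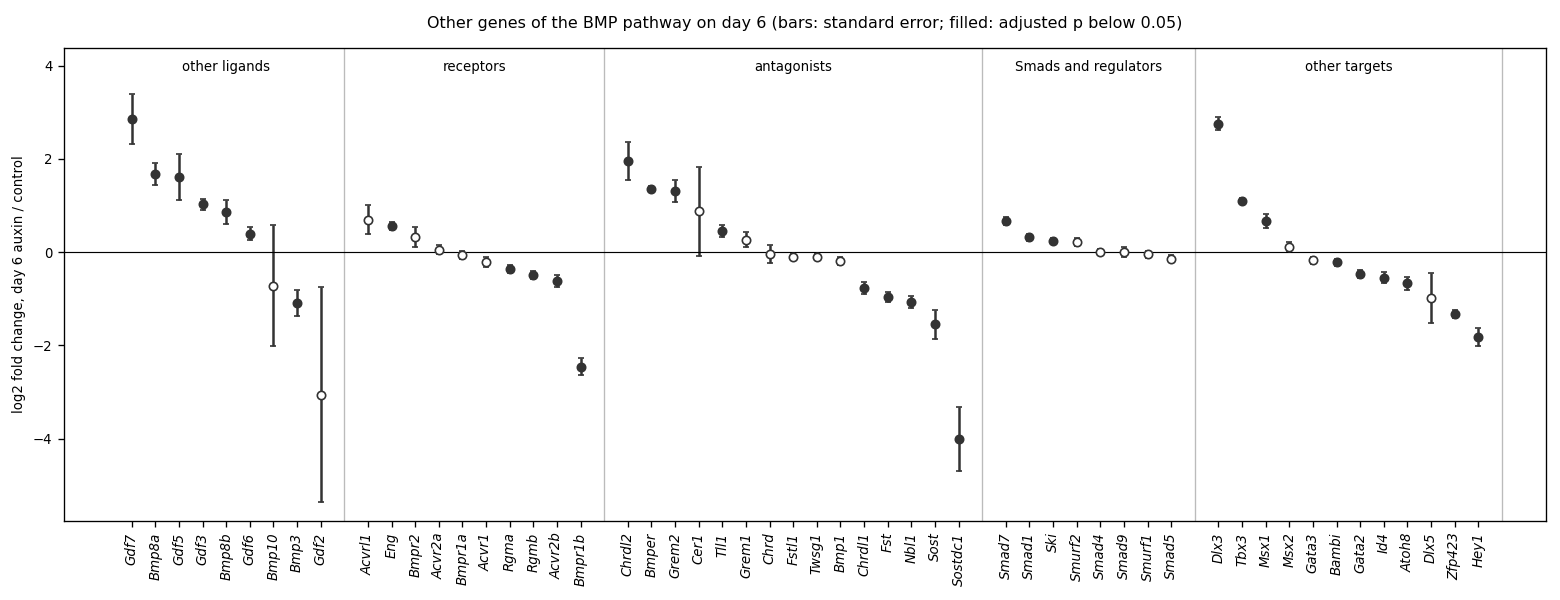
Log2 fold change of day 6 auxin over control (vertical axis) for 54 other BMP pathway genes ordered by role (horizontal axis), with bars for the standard error and filled symbols for an adjusted p below 0.05. Each role except the Smads and regulators holds both rising and falling genes, from Gdf7 at 2.86 to Sostdc1 at -4.01, which are named as the extremes of the plot after their values were seen.

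The genes lie apart in the genome (mm10, GENCODE vM21), and each is annotated as protein coding. Bmp2 (chr2:133552159-133562885), Bmp7 (chr2:172868012-172940321) and Id1 (chr2:152736251-152737410) share a chromosome, as do Bmp5 (chr9:75775364-75900310) and Smad6 (chr9:63953076-64022059). Bmp4 is at chr14:46383520-46390669, Bmp6 at chr13:38345107-38500302, Id2 at chr12:25093799-25097140, Id3 at chr4:136143497-136145755 and Nog at chr11:89300638-89302332. Genes annotated over Bmp4 (Gm15217, Gm15222), Bmp5 (Gm47723, Gm26903) and Bmp6 (4930579J19Rik, Txndc5) could share reads with them, because the strand setting of the counting is not given in the sources used here. Within 500 kb of the 10 genes 141 other genes were tested. On day 4 with auxin 24.1% of them changed, against 23.5% of all genes, and on day 6 29.8%, against 29.2%.

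Across the 12 group means of log2(CPM + 0.5), the genes most like each were found among 13892 genes by Pearson's r, as a description with no test. The 12 points share depth and, in ES groups, a replicate shift. Bmp5 went with Unc5c (0.99), Rbms3 (0.99) and Pcdh18 (0.99). Bmp7 went with Spon1 (0.97), Dpysl4 (0.96) and Ptprn2 (0.95), and Bmp4 with Gm11512 (0.97), Hand1 (0.96) and Pqlc3 (0.95). Atp2b1 was on the list of both Id2 (0.99) and Id3 (0.98). For Id2 the others were Cnot6 and Cdh6 and for Id3 Atp11a and Elovl1. Id1 had Slc6a15 (0.96), Fkbp9 (0.96) and P4hb (0.95). Nog had Dpm2, Mob3a and Ier5 (0.95 to 0.96), and Bmp2 had Tktl2, 9930014A18Rik and Chsy3, each at 0.99. The weakest were those of Bmp6 (Socs1, Tbkbp1 and Mppe1, 0.90 to 0.91) and Smad6 (Wee1, Srf and Gm45819, 0.89 to 0.92).

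The order of levels over groups was clear at the top for Bmp7 and Bmp5. Bmp7 was highest in day 6 controls, then day 4 controls, with no overlap between neighbours down to day 4 auxin, which overlapped day 6 auxin. Bmp5 was highest after washout on day 4, then washout on day 6, day 6 controls, day 6 auxin, day 4 controls and day 4 auxin, with no overlap between neighbours down to day 2 auxin. For Bmp2 the highest group, washout on day 6, overlapped washout on day 4, and for Bmp4 ES cells at 0, 24 and 48 h overlapped in sequence. Bmp6 was highest in ES cells at 96 h, and below that its groups overlapped in sequence from day 4 auxin down to day 4 controls. Id2 overlapped between day 4 and day 6 controls at the top, and washout on day 6, day 4 auxin and day 6 auxin overlapped in sequence. Smad6 was highest after washout on day 4, clear of washout on day 6, which overlapped day 6 auxin.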

How the data were processed

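The authors deposited whole-number read counts per gene with no normalization, 1 column per library. STAR, HTSeq, edgeR and the mm10 build are named, per the submitters' processing notes; strandedness is not given in the sources used here, nor are versions or the annotation release. Low counts (1 to 20) were even in 59.6% to 78.0% of values per library, so halving all counts was tried. The washout libraries were lowest, at 59.61% to 60.48%, with all others at 65.89% or above. The table's 1 unnamed line was dropped. Groups came from sample titles. The header joins 2 column names with spaces, and these were read by position.

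Fits used R 4.3.3 with edgeR 4.0.16: filterByExpr (minimum count 10, total 15), TMM scaling, 1 mean per group, quasi-likelihood tests and Benjamini-Hochberg adjustment over 20361 genes (8 ES libraries), 22587 (16 differentiation libraries) or 23831 (all 24, for comparisons across both). Common dispersions were 0.134, 0.0051 and 0.0439. Standard errors are the log2 fold change over the square root of F. The ES and the differentiation fit were tested on simulated data with planted changes: on day 4, 58.2% of 2-fold and 85.7% of 4-fold changes were found. DESeq2 1.42.0, RLE scaling, no filter, a replicate block, other library sets and leaving out each library were alternatives. Replicate numbers deviated together in all 6 pairs of ES groups (correlation 0.18 to 0.74). They did not in the 28 differentiation pairs (-0.20 to 0.16), so they were taken to pair the ES samples only. The lowest ES value was that of 0 h with 96 h, close to the highest of the differentiation pairs.

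Of the 10 genes each that passed in a comparison is named, and some that did not are given as counts. Other pathway genes named are the up to 3 called each way with the smallest adjusted p per auxin comparison, and the 3 genes most like each of the 10. The genes, lists and tests were chosen with earlier results of these data known. Promoter windows are the 250 bases before the RefSeq start. Those of Bmp6 and Id3 lie wholly, and that of Id2 in part, within GENCODE exons, and such parts are not printed.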

Additional observations from a re-analysis of the deposited data

Results flagged for a closer look

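The auxin effect differed between days for several genes, by a test of the difference itself in edgeR's quasi-likelihood fit. From day 2 to day 4 the log2 effect shifted by -1.81 for Id3, -1.76 for Nog, -0.62 for Id1 and -0.48 for Bmp7. The Id1 call was lost without the first control library of day 2 (adjusted p = 0.097) or of day 4 (0.051), and the Bmp7 call without the first day 2 control (0.085) or the first day 4 auxin library (0.063).

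From day 4 to day 6 the shift was 2.31 for Bmp5, 0.60 for Id3, 0.59 for Bmp2, 0.59 for Smad6, 0.49 for Id1, -0.44 for Bmp6 and -0.97 for Bmp7. Bmp5 lost its call without the second day 4 auxin library, which has 2 counts (1.77, adjusted p = 0.13). Each of the others except Bmp7 lost its call without at least 1 of the 8 libraries. For Bmp6 each of the 8 ended it.

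Bmp4 responded differently on day 4 of differentiation and after 96 h in ES cells, by 1.17 in the fit of all 24 libraries (adjusted p = 0.032). With only the libraries of those groups in the fit the adjusted p was 0.46, and 5 of the 8 left-out libraries also ended the call.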

How the results depend on the processing

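No value of the 10 genes that passed the threshold, in the fit reported or in the alternative, changed direction. Values that passed in neither changed sign in 57 of 1542 alternatives, 51 of them from leaving out 1 library and 38 in comparisons with ES groups. With the replicate block Id2 at 24 and 96 h in ES cells came to 0.0016 and 0.20, Bmp7 at 48 h to -0.026 and Id3 at 96 h to 0.25. In 1 fit of 24 libraries Id2 came to -0.0021 for day 6 against day 4 controls and Bmp4 to -0.0075 for auxin on day 2. Leaving out 1 library gave log2 values on both sides of 0 in ES cells at 24 h (-0.61 to 0.25 for Bmp2, -0.74 to 0.85 for Id2, -0.53 to 1.76 for Id3 and -0.52 to 0.14 for Nog), at 48 h (-0.16 to 0.25 for Bmp6, -0.24 to 0.38 for Bmp7, -0.69 to 1.13 for Id2, -0.18 to 1.98 for Id3 and -0.97 to 0.14 for Nog) and at 96 h (-0.19 to 0.97 for Bmp2, -0.14 to 1.16 for Bmp7, -0.59 to 0.85 for Id2, -0.82 to 1.34 for Id3 and -0.28 to 0.16 for Smad6). It did so for day 2 against ES (-0.20 to 0.43 for Bmp7, -1.29 to 0.15 for Id2 and -0.18 to 0.049 for Smad6), day 6 against day 4 controls (-0.027 to 0.044 for Id2), auxin on day 2 (-0.072 to 0.062 for Bmp4), auxin on day 4 (-0.21 to 0.19 for Bmp4) and auxin on day 6 (-0.0092 to 0.051 for Bmp6 and -0.017 to 0.33 for Id1). The same held for washout on day 4 (-0.04 to 0.17 for Id3) and washout on day 6 (-0.17 to 0.032 for Id3 and -0.089 to 0.16 for Smad6), both against day 6 auxin, and for the effect of day 4 minus day 2 (-0.21 to 0.18 for Bmp4), day 6 minus day 4 (-0.056 to 0.016 for Id2) and day 4 minus ES 96 h (-1.13 to 0.12 for Bmp2, -0.40 to 0.021 for Bmp6, -1.40 to 0.036 for Id2, -0.40 to 0.23 for Nog and -0.25 to 0.24 for Smad6).

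Over the alternatives other than leaving out a library, calls of the 10 genes changed mostly in 1 fit of all 24 libraries. Of 125 results there, called or not, 39 lost a call and 4 gained one. Totals here count every result tested, so the share of calls lost is higher. With a replicate block, of 143 results 4 lost and 1 gained a call. With RLE scaling 2 lost one, with DESeq2 3 and with counts halved 2 gained one, and without the filter 4 lost and 6 gained one. Over 684 results from leaving out 1 library, called or not in the fit reported, 63 lost a call and 12 gained one. The cause was not tested.

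Counts of all genes called in ES cells, 0 at 24, 48 and 96 h of auxin, were 49, 135 and 391 without the filter, 76, 154 and 365 with DESeq2, 23, 40 and 621 with the replicate block, and 307, 710 and 1955 in 1 fit of all 24 libraries, and stayed 0 whichever library was left out. That fit of 24 gave 5746 genes for day 4 against day 2 controls (11757 in the differentiation fit), 1218 for day 6 against day 4 (6024), 313, 803 and 1564 for auxin on days 2, 4 and 6 (4126, 5318 and 6588), 1606 and 1635 for day 4 washout against day 6 auxin and day 6 control (7823 and 7658), 2337 for day 6 washout (9097), and 73 and 30 for the 2 differences between days (2237 and 958). With only the groups compared, day 2 against ES gave 238 (4328) and the day 4 to ES difference 0 (294); that difference gave 777 without the filter and 871 with DESeq2.

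Leaving out 1 library gave 1932 to 6051 genes for day 2 against ES, 9600 to 9957 for day 4 against day 2, 3861 to 4117 for day 6 against day 4, 2214 to 7719, 3320 to 3739 and 4630 to 4785 for auxin on days 2, 4 and 6, 5071 to 5703 and 5328 to 5722 for day 4 washout against day 6 auxin and control, 6349 to 6818 for day 6 washout, and 1218 to 6326, 506 to 559 and 49 to 691 for the 3 differences between effects. The highest counts for day 2 (7719) and for the first difference (6326) came without the second day 2 auxin library. The block moved the counts of differentiation comparisons by less than 1.5 times, and the pairing holds for ES groups only.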

Other observations

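Near Nog, 6 of the 11 tested genes within 500 kb rose with auxin on day 4 and the same 6 on day 6 (Akap1, Scpep1, Elobl, Coil, 2210409E12Rik and Trim25), and none fell, while Nog was lower on day 4. Near Bmp7, 3 of 17 tested genes rose and 1 fell on day 4, and 3 rose and 0 fell on day 6. Tfap2c and Pmepa1, a gene known to respond to TGF-beta signalling, rose on both days while Bmp7 fell. Over all genes 11.8% rose on day 4 and 14% on day 6. Both loci were picked after their values were seen, and the comparisons on the 2 days include no shared libraries.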
